A study of Danio rerio with 9 samples.

Results

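The genes described here are the MiT/TFE transcription factors (tfeb, tfe3a, tfe3b, tfec and mitfa), folliculin (flcn) with its binding partners fnip1 and fnip2, and the Rag GTPase genes rragca and rragd. They were chosen by name, with earlier results of these data known, and the rule used no measured value. The 10 names matched 11 of the 32520 gene IDs in the deposited count table. For 8 names the symbol itself was found. For tfe3a and mitfa only the symbol without its final letter was found, which gave TFE3 (ENSDARG00000098903) and 2 IDs for MITF (ENSDARG00000003732 and ENSDARG00000037833), and the table does not say which MITF ID is mitfa. Symbols are printed as the names table gives them.

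MiT/TFE factors are basic helix-loop-helix leucine zipper proteins that bind a short DNA element, called CLEAR, in front of many lysosomal and autophagy genes. In mammalian cells with ample nutrients, the kinase complex mTORC1 phosphorylates them on the lysosome surface and keeps them in the cytoplasm, and this requires Rag GTPase dimers. Folliculin, bound to FNIP1 or FNIP2, activates the GTPase activity of RagC and RagD and so brings these factors to mTORC1. Much of this control acts on the proteins, and the data below are RNA levels only.

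Whole zebrafish (Danio rerio) embryos were sampled 30 hours after fertilisation. The npc2 gene encodes a lysosomal cholesterol-binding protein. Homozygous embryos (MZnpc2m/m) lacked both maternal and zygotic wild-type npc2, and heterozygous embryos (Mnpc2+/m) carried 1 mutant copy and had a mutant mother. These 2 genotypes came from shared crosses and were told apart by phenotype, whereas wild-type embryos (npc2+/+) were bred from wild-type siblings of the mutants' parents. Against wild type, both mutant genotypes therefore differ also in maternal genotype, parents and clutch, and the effects of these cannot be told apart there. RNA of 30 embryos was pooled per library, with 3 pools per genotype. The series design sets homozygous and heterozygous mutants against wild type.

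Total counts per library ranged from 42535508 to 69360234 in homozygous embryos, from 55144480 to 65070813 in heterozygous embryos and from 38564405 to 64100420 in wild-type embryos. Levels are given as CPM, counts divided by the library total after edgeR's TMM scaling and set to a common total for all libraries, which are not corrected for gene length, so they are compared between genotypes and not between genes. Calls were made in edgeR's quasi-likelihood test where the adjusted p was under 0.05. The labels do not tie pools to clutches or days, so the p-values rest on the spread between pools of a genotype. NPC2 (ENSDARG00000090912), which checks the labels, was at 32.6 to 44.3 CPM in homozygous, 142 to 146 CPM in heterozygous and 256 to 278 CPM in wild-type libraries, with no overlap between genotypes. In whole embryos, fewer cells of a type and less RNA per cell cannot be told apart.

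Of the 11 IDs, 10 had enough counts to be tested. In homozygous against wild-type embryos, 5 of these 10 were higher (TFE3, tfe3b, TFEC, MITF ENSDARG00000003732 and FNIP1) and 0 were lower, where 23.5% of all 20375 tested genes were higher and 21.1% lower, 44.5% together. In heterozygous against wild-type embryos, 4 were higher (TFE3, TFEC, MITF ENSDARG00000003732 and rragd) and 0 were lower, against 15.5% and 14.4% of all genes. In homozygous against heterozygous embryos, 2 were higher (TFE3 and FNIP1) and 1 was lower (rragd), against 20.4% and 19.4% of all genes. The 10 tested rows had a median log2 fold change of 0.39 in homozygous and 0.36 in heterozygous embryos against wild type, where the medians of all tested genes were 0.02 and 0.00. Between homozygous and heterozygous embryos these medians were 0.15 and 0.01. All 3 libraries of the genotype named first lay above the other 3 in 5 rows and below them in 0 rows for homozygous and wild type (28.6% and 25.3% of all genes, 53.9% together). The numbers were 5 and 0 rows for heterozygous and wild type (21.8% and 20.9%, 42.7% together), and 3 rows and 1 row for homozygous and heterozygous (26.5% and 24.7%, 51.2% together). With so many genes called in these embryos, a call on 1 gene is common, and the sizes below say more than the counts.

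**Figure D1:**
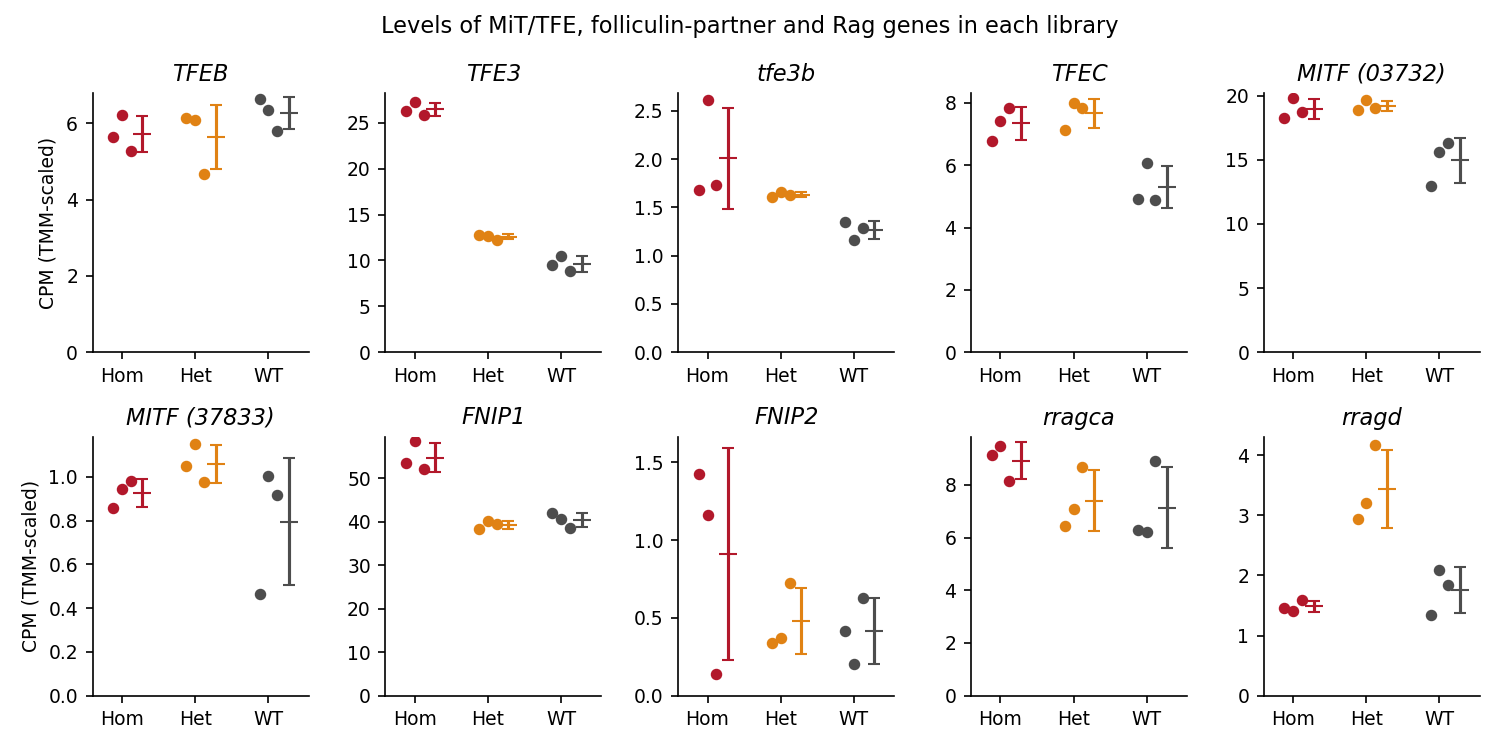
Levels of the 10 tested rows in each library, in TMM-scaled CPM on an axis from 0 that differs between panels. Points are pools of 30 embryos (3 homozygous, 3 heterozygous and 3 wild-type, left to right), and the bar beside them is the mean ± SD (n = 3). TFE3 separated all 3 genotypes, TFEC and the first MITF row were high in both mutant genotypes, FNIP1 was high in homozygous libraries and rragd in heterozygous libraries; MITF panels carry the last 5 digits of the ID.

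Tfe3 is, with Tfeb, the main MiT/TFE activator of lysosomal genes in mammalian cells, and TFE3 (ENSDARG00000098903) had the largest log2 fold change of the 10 tested rows in homozygous against wild-type embryos. It was at 26.3, 27.3 and 25.9 CPM in homozygous libraries, 12.8, 12.7 and 12.3 CPM in heterozygous libraries and 9.56, 10.5 and 8.82 CPM in wild-type libraries. Every homozygous library lay above every heterozygous one, and every heterozygous library above every wild-type one. The gene rose 2.75-fold in homozygous embryos (log2 fold change ± SE of 1.46 ± 0.08, edgeR adjusted p = 8.75e-11) and 1.30-fold in heterozygous embryos (0.38 ± 0.08, edgeR adjusted p = 0.00115), both against wild type. Between homozygous and heterozygous embryos, which shared their crosses, the rise was 2.11-fold (1.07 ± 0.07, edgeR adjusted p = 5.02e-09). The heterozygous level lay below the midpoint of both other genotypes on the log2 scale, by a difference of -0.35 ± 0.07 (edgeR adjusted p = 6.31e-04), so most of the rise was seen in homozygous embryos. Heterozygous embryos were called above the midpoint for 16.7% and below it for 17% of all tested genes, 33.7% together; of the 10 rows here, 3 lay above it (TFEC, MITF ENSDARG00000003732 and rragd) and 2 below (TFE3 and FNIP1). Without homozygous replicate 1 or heterozygous replicate 2 or 3 the first number was 1, rragd alone, and MITF ENSDARG00000003732 passed this test without 1 library only when that library was wild-type replicate 3. The calls of TFE3 in the 3 comparisons of genotypes, and its departure from the midpoint, held when any 1 library was left out.

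The gene tfe3b (ENSDARG00000019457), the second zebrafish tfe3 copy, had far fewer counts, between 52 and 166 per library. It was at 1.68, 2.61 and 1.73 CPM in homozygous libraries, 1.61, 1.65 and 1.63 CPM in heterozygous libraries and 1.35, 1.16 and 1.29 CPM in wild-type libraries. The 3 genotypes again kept the same order without overlap, but homozygous replicate 2 stood above the rest. The gene rose in homozygous against wild-type embryos by 0.67 ± 0.20 on the log2 scale (edgeR adjusted p = 0.0109), a call that ended without homozygous replicate 2 (0.43, adjusted p = 0.111). Its differences of 0.37 ± 0.20 in heterozygous against wild-type embryos (edgeR adjusted p = 0.183) and 0.30 ± 0.19 in homozygous against heterozygous embryos (adjusted p = 0.238) did not pass the test. In the RefSeq annotation of another build, GRCz12tu, tfe3b overlaps the gene si:dkey-245f22.3, which is listed at 0 in all 9 libraries, tfec overlaps 2 long non-coding RNA genes and fnip2 overlaps 1, which were not matched to IDs of the count table. Reads of overlapping genes cannot be told apart here because the strand setting of the counting is not given in the sources used here.

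TFEB (ENSDARG00000010794), the family member most studied as a regulator of lysosome number, gave no call in any comparison. Its levels were 5.65, 6.20 and 5.28 CPM in homozygous, 6.15, 6.08 and 4.67 CPM in heterozygous and 6.63, 6.34 and 5.80 CPM in wild-type libraries, and the ranges of all 3 genotypes overlapped. Homozygous against wild-type embryos differed by -0.13 on the log2 scale (95% interval -0.38 to 0.12, edgeR adjusted p = 0.406). That interval lies below the change of TFE3 in the same libraries. Heterozygous against wild-type embryos differed by -0.15 ± 0.12 (edgeR adjusted p = 0.376) and homozygous against heterozygous embryos by 0.02 ± 0.12 (adjusted p = 0.908).

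TFEC and MITF showed another pattern, with both mutant genotypes above wild type and no call between them. Tfec marks iridophore and retinal pigment epithelium lineages in zebrafish, and Mitfa specifies melanophores. TFEC (ENSDARG00000098745) was at 6.79, 7.41 and 7.85 CPM in homozygous, 7.14, 8.00 and 7.85 CPM in heterozygous and 4.92, 6.08 and 4.89 CPM in wild-type libraries. It rose by 0.47 ± 0.11 on the log2 scale in homozygous embryos (edgeR adjusted p = 0.00193) and by 0.53 ± 0.11 in heterozygous embryos (adjusted p = 0.00129), each against wild type. The difference of homozygous from heterozygous embryos was -0.06, with a 95% interval of -0.28 to 0.16 (edgeR adjusted p = 0.681).

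MITF ENSDARG00000003732 was at 18.3, 19.8 and 18.7 CPM in homozygous, 18.9, 19.7 and 19.0 CPM in heterozygous and 12.9, 15.6 and 16.3 CPM in wild-type libraries. Every mutant library of both genotypes lay above all wild-type libraries, as was also the case for TFEC. Its log2 fold change was 0.34 ± 0.08 in homozygous embryos (edgeR adjusted p = 0.00249) and 0.35 ± 0.08 in heterozygous embryos (adjusted p = 0.00292) against wild type. Homozygous and heterozygous embryos differed by -0.02, with a 95% interval of -0.19 to 0.15 (edgeR adjusted p = 0.886). Because these 2 mutant genotypes share maternal genotype and crosses, while wild type does not, the pattern of TFEC and MITF follows the cross as well as the mutant allele, and which of them it goes with cannot be told apart. Heterozygous embryos lay above the midpoint of both other genotypes, by 0.29 ± 0.09 for TFEC (edgeR adjusted p = 0.0185) and 0.19 ± 0.07 for MITF (adjusted p = 0.0454). The first of these calls ended without homozygous replicate 1 or heterozygous replicate 2 or 3 (adjusted p = 0.0524 to 0.0923), and the second without any 1 library other than wild-type replicate 3 (0.0511 to 0.156).

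The second MITF row, ENSDARG00000037833, held only 18 to 68 counts per library. It was at 0.856, 0.942 and 0.981 CPM in homozygous, 1.05, 1.15 and 0.977 CPM in heterozygous and 0.466, 1.00 and 0.918 CPM in wild-type libraries. The ranges overlapped between every pair of genotypes, and wild-type replicate 1 was the lowest library. The differences from wild type were 0.19 ± 0.27 in homozygous (edgeR adjusted p = 0.603) and 0.39 ± 0.27 in heterozygous embryos (adjusted p = 0.310), and homozygous embryos differed from heterozygous ones by -0.20 ± 0.27 (adjusted p = 0.601), so the low depth allows changes in either direction.

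Marker lists of the cells in which these factors are known to act were measured beside them. Summed over 20 melanin pathway rows, the level was 1162 to 1247 CPM in homozygous, 1131 to 1203 CPM in heterozygous and 1071 to 1122 CPM in wild-type libraries. Both mutant ranges lay above wild type, as for MITF ENSDARG00000003732, but by a smaller ratio. Of 17 tested melanin rows, 6 were higher and 2 lower in homozygous embryos (3 higher without homozygous replicate 1; 1 lower without wild-type replicate 3), and 2 higher and 0 lower in heterozygous embryos, against wild type. That is 47.1% of the rows in homozygous embryos, near the 44.5% of all genes, and 11.8% in heterozygous embryos, under the 29.8% of all genes. The 2 in heterozygous embryos were pmela and DCT, and this count ran from 0 to 4 when 1 library was left out. The melanosome matrix gene pmela was higher by 0.21 ± 0.04 (homozygous, edgeR adjusted p = 8.64e-04) and 0.14 ± 0.04 (heterozygous, adjusted p = 0.0226), the melanin enzyme gene DCT by 0.18 ± 0.05 (0.00575) and 0.15 ± 0.05 (0.0214). For tyrosinase, TYR, the differences of -0.06 ± 0.06 and 0.04 ± 0.06 did not pass the test. The call of DCT in homozygous embryos ended without homozygous replicate 1 (edgeR adjusted p = 0.0615). Also among the 6 higher there were RAB32 ENSDARG00000029036 (0.50 ± 0.08) and trpm1b (0.32 ± 0.07). The 2 rows called lower in homozygous embryos are not among the genes named here. Log2 fold changes of the tested rows ran from -0.25 to 1.06 in homozygous against wild-type embryos, with a median of 0.10. In heterozygous against wild-type embryos their median was -0.03, so most single rows did not rise there.

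Rows of neural crest and other pigment cells summed to 776 to 796 CPM in homozygous, 961 to 994 CPM in heterozygous and 929 to 970 CPM in wild-type libraries, and gch2 alone held 49.2% of this sum. In homozygous against wild-type embryos, 2 of 16 tested rows were higher (23.5% of all genes) and 8 lower (21.1% of all genes). The 2 higher were the transcription factor genes TFAP2E (0.34 ± 0.07) and TFAP2A (0.23 ± 0.05), and among the 8 lower were XDH (-1.30 ± 0.08) and gch2 (-0.42 ± 0.04), both used in xanthophore pigment synthesis, and SOX10 (-0.27 ± 0.06), the neural crest factor. Against wild type, 2 were higher and 4 lower in heterozygous embryos, against 15.5% and 14.4% of all genes, and the 2, the iridophore gene pnp4a (0.25 ± 0.07, edgeR adjusted p = 0.0143) and the xanthophore gene aox5 (0.15 ± 0.05, adjusted p = 0.0274), numbered 0 to 3 when 1 library was left out, while the 4 became 2 without heterozygous replicate 1. The gene aox5 was among the 8 lower in homozygous against wild-type embryos (-0.43 ± 0.05, edgeR adjusted p = 1.54e-06). It was also lower in homozygous than in heterozygous embryos (-0.58 ± 0.05, adjusted p = 5.55e-08). The same call was made for pnp4a, at -0.278 to -0.185 over the alternative runs, and ended without homozygous replicate 1 or heterozygous replicate 1. TFAP2E, TFAP2A, aox5 in heterozygous embryos and pnp4a in homozygous against heterozygous embryos were named after their values were seen. Retinal pigment epithelium rows summed to 87.8 to 90.8 CPM in homozygous, 100.7 to 108.7 CPM in heterozygous and 106.7 to 114.4 CPM in wild-type libraries, and OTX2 alone held 48.7% of this sum. In homozygous against wild-type embryos 3 of 10 rows were lower and 0 higher (1 higher without homozygous replicate 2). That is 30% in all, under the 44.5% of all genes (21.1% lower and 23.5% higher). The 3 lower were OTX2 (-0.35 ± 0.06), rdh5 (-0.52 ± 0.12) and RPE65 ENSDARG00000054420 (-0.78 ± 0.26). This call of RPE65 was lost in 7 of 18 alternative runs. The gene rdh5 was also lower in homozygous than in heterozygous embryos (-0.84 ± 0.11, edgeR adjusted p = 1.76e-05). Against wild type, 1 row was higher in heterozygous embryos, rdh5 (0.32 ± 0.11, edgeR adjusted p = 0.0434), and 0 were lower, 10% in all against 29.8% of all genes. This call of rdh5 in heterozygous embryos ended without homozygous replicate 3, heterozygous replicate 1 or 2 or wild-type replicate 1 or 2. In those embryos 2 rows were lower without wild-type replicate 3.

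Mitf and Tfec are also expressed in mouse macrophages. The macrophage and leukocyte rows other than apoeb, which alone held 97.5% of the summed level of that list, summed to 81.2 to 84.8 CPM in homozygous, 66.2 to 68.5 CPM in heterozygous and 57.5 to 73.2 CPM in wild-type libraries. The defining markers lyz and CORO1A were at or near 0 in all libraries, and no statement on leukocytes is made from them. The markers mpeg1.1, mpeg1.2 and mpx had no match among the symbols, and several rows of this list carry the symbol MFAP4. In homozygous against wild-type embryos 6 of 17 tested rows were higher and 0 lower, 35.3% in all against 44.5% of all genes (23.5% higher and 21.1% lower). The 6 include the leukocyte gene LCP1 (0.66 ± 0.09) and ptprc, which encodes the leukocyte phosphatase CD45 (0.80 ± 0.13). In heterozygous against wild-type embryos 2 were higher (1 without heterozygous replicate 3) and 1 was lower (0 without heterozygous replicate 1 or 2 or wild-type replicate 2 or 3). That is 17.6% in all, under the 29.8% of all genes (15.5% higher and 14.4% lower). The number lower also changed without the low-count filter and when only the 2 genotypes compared were fitted. Rows of broad tissues moved as well. Of 6 whole-embryo rows, 2 were higher and 3 lower in homozygous against wild-type embryos, 83.3% against 44.5% of all genes. Against heterozygous embryos 1 was higher and 3 lower, 66.7% against 39.8%. In these comparisons the neuron gene ELAVL3 rose by 0.71 ± 0.05 and 0.84 ± 0.05. The muscle gene actc1b fell by 0.54 ± 0.04 and 0.35 ± 0.04. The part of any of these cell types in the levels of TFE3, TFEC, MITF or FNIP1 was not tested.

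FLCN (ENSDARG00000062385) is listed at 0 counts in all 9 libraries. A count of 0 allows up to 3 counts, here 0.0433 to 0.0778 CPM, for counting error alone. Other genes that most cells use are also listed at 0 throughout, among them both TSC1 rows, rps6kb1a, rps6kb1b and SEC13, as are 6467 of the 32520 IDs. No statement on the folliculin transcript is therefore made from this row.

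FNIP1 (ENSDARG00000102171), which encodes the scaffold that stabilises folliculin, was at 53.5, 58.5 and 52.2 CPM in homozygous, 38.2, 40.2 and 39.5 CPM in heterozygous and 42.0, 40.7 and 38.7 CPM in wild-type libraries. All homozygous libraries lay above all others, while heterozygous and wild-type libraries overlapped. FNIP1 rose 1.35-fold in homozygous embryos against wild type (0.44 ± 0.06, edgeR adjusted p = 7.31e-06) and 1.39-fold against heterozygous embryos (0.48 ± 0.06, adjusted p = 3.22e-06). In heterozygous against wild-type embryos the difference was -0.04, with a 95% interval of -0.16 to 0.08 (edgeR adjusted p = 0.638). Heterozygous embryos lay below the midpoint, by a difference of -0.26 ± 0.05 (adjusted p = 6.34e-04). FNIP1 was thus high in homozygous embryos alone among the genotypes, also against the heterozygous embryos of the same crosses. In the RefSeq annotation of GRCz12tu, fnip1 overlaps ddx46, an RNA helicase gene. DDX46 differed by -0.02 ± 0.05 in homozygous against wild-type embryos (edgeR adjusted p = 0.717) and by -0.14 ± 0.05 in homozygous against heterozygous embryos (adjusted p = 0.0302). The part of overlapping reads in the FNIP1 level was not tested.

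FNIP2 (ENSDARG00000077648), the paralogue of FNIP1, was covered by few counts and varied most among replicates. It was at 1.43, 1.16 and 0.140 CPM in homozygous, 0.340, 0.371 and 0.724 CPM in heterozygous and 0.414, 0.204 and 0.625 CPM in wild-type libraries. Homozygous replicates 1 and 2, with 100 and 74 counts, were above all other libraries, and homozygous replicate 3, with 6 counts, was below them all. The log2 difference of homozygous from wild-type embryos was 1.18 ± 0.72 with a 95% interval of -0.46 to 2.82 (edgeR adjusted p = 0.221), and did not pass the test. Without homozygous replicate 3 it was 1.65 (adjusted p = 0.00534), and against heterozygous embryos 0.97 ± 0.70 (adjusted p = 0.319) became 1.45 (adjusted p = 0.0114), so the lack of a call rests on that library. Heterozygous and wild-type embryos differed by 0.21 ± 0.75 (edgeR adjusted p = 0.865).

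RagC and RagD are the GTPases on which the folliculin complex acts, and their zebrafish genes did not share a pattern. The gene rragca (ENSDARG00000069829) was at 9.15, 9.49 and 8.16 CPM in homozygous, 6.44, 7.09 and 8.69 CPM in heterozygous and 6.29, 6.20 and 8.93 CPM in wild-type libraries. The third library of the heterozygous and of the wild-type embryos reached into the homozygous range. No comparison passed the test, with differences from wild type of 0.32 ± 0.14 in homozygous (edgeR adjusted p = 0.0833) and 0.05 ± 0.14 in heterozygous embryos (adjusted p = 0.837), and a difference of homozygous from heterozygous embryos of 0.27 ± 0.14 (adjusted p = 0.146). The first was called without wild-type replicate 3 (0.52, adjusted p = 0.00386) and the last without heterozygous replicate 3 (0.41, adjusted p = 0.0394).

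The gene rragd (ENSDARG00000006279), itself a direct target of MiT/TFE factors in mammalian cells, was high in heterozygous embryos. It was at 1.46, 1.41 and 1.59 CPM in homozygous, 2.93, 3.21 and 4.16 CPM in heterozygous and 1.35, 2.10 and 1.84 CPM in wild-type libraries. Every heterozygous library lay above every homozygous and wild-type library, while those of homozygous and wild-type embryos overlapped. The gene rose 1.93-fold in heterozygous against wild-type embryos (0.95 ± 0.19, edgeR adjusted p = 9.37e-04). In homozygous against heterozygous embryos it fell by 1.21 ± 0.19 on the log2 scale (edgeR adjusted p = 5.73e-05), and in homozygous against wild-type embryos the difference of -0.26 ± 0.19 did not pass the test (adjusted p = 0.290). Heterozygous embryos lay 1.08 ± 0.16 above the midpoint of both other genotypes (edgeR adjusted p = 4.41e-05). The rragd row thus did not follow TFE3, which was highest in homozygous embryos. These calls, on 52 to 230 counts per library, held when any 1 library was left out.

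**Figure D2:**
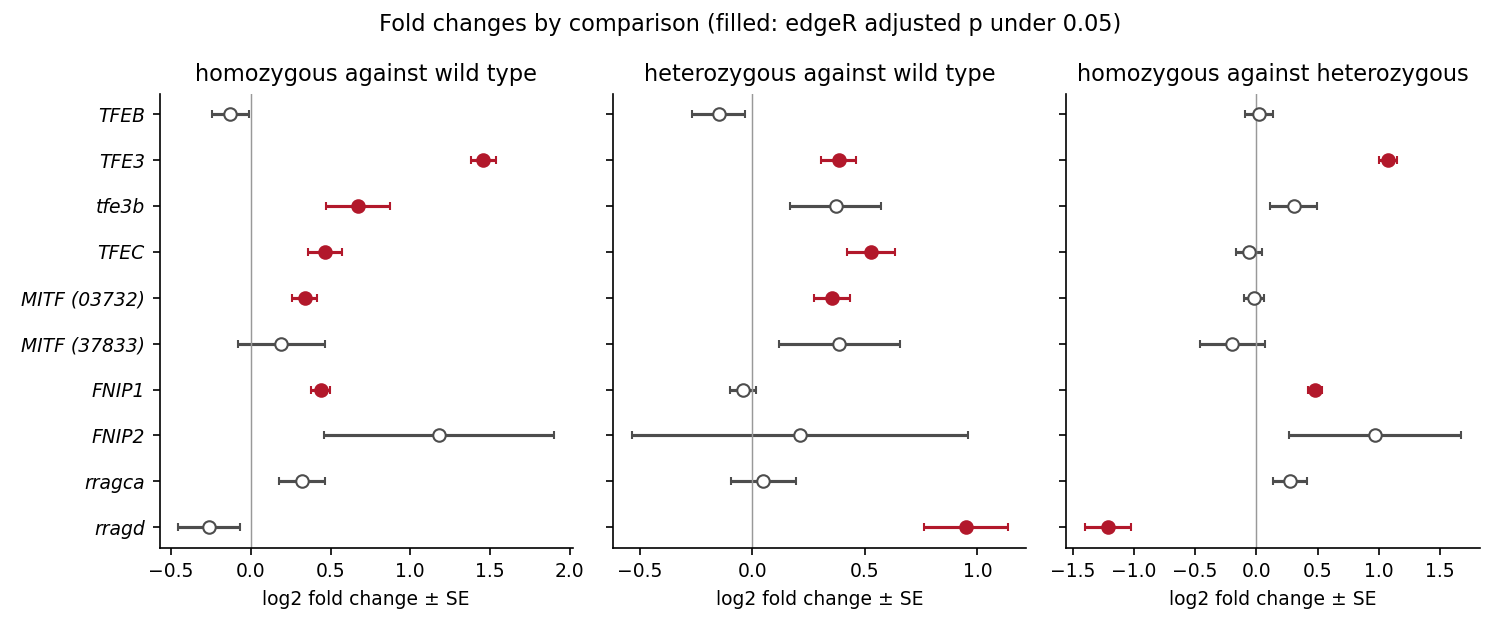
Log2 fold changes ± SE of the 10 tested rows for the 3 comparisons named above the panels (3 pools per genotype; the log2 axes differ between panels). Filled points had an edgeR adjusted p under 0.05. TFE3 lay at 1.46, 0.38 and 1.07 in the 3 panels, and rragd at -0.26, 0.95 and -1.21; the comparisons share libraries and are not independent.

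Ratios between paralogues, which do not depend on library scaling, were compared within libraries. The log2 ratio of TFE3 to tfe3b averaged 3.75 ± 0.32 in homozygous, 2.95 ± 0.04 in heterozygous and 2.93 ± 0.22 in wild-type libraries (SD, n = 3 each). It was higher in all homozygous libraries, by 0.82 against wild type and 0.80 against heterozygous embryos. Each had a two-sided exact permutation p of 0.1, the smallest that 3 against 3 libraries can give, and 0.18 after adjustment over the 9 ratio comparisons made. The gap between heterozygous and wild-type libraries was 0.02 (exact permutation p = 1).

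The log2 ratio of rragd to rragca averaged -2.59 ± 0.20 in homozygous, -1.11 ± 0.05 in heterozygous and -2.02 ± 0.40 in wild-type libraries (SD, n = 3 each), and the 3 genotypes did not overlap. Homozygous libraries were 0.56 below wild type, heterozygous libraries 0.91 above wild type and homozygous libraries 1.47 below heterozygous ones (exact permutation p = 0.1 and adjusted p = 0.18 in each). With 1 CPM added to both genes, the last difference was -1.07. The log2 ratio of FNIP2 to FNIP1 was -6.47 ± 1.80 in homozygous, -6.45 ± 0.59 in heterozygous and -6.75 ± 0.85 in wild-type libraries (SD, n = 3 each) and overlapped in every comparison (exact permutation p = 0.6 to 1).

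**Figure D3:**
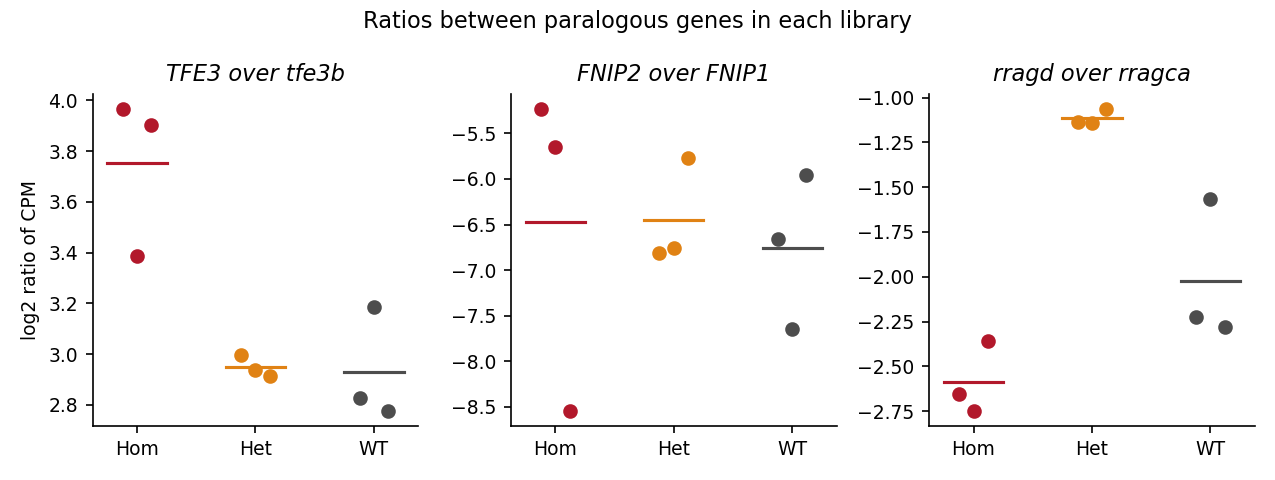
Log2 ratio of the CPM of 2 related genes in each library (points; 3 homozygous, 3 heterozygous and 3 wild-type, left to right), with the mean as a bar; the vertical axes differ between panels. The ratio of TFE3 to tfe3b was high in homozygous libraries (mean 3.75), that of rragd to rragca was high in heterozygous libraries (mean -1.11), and that of FNIP2 to FNIP1 spread widely in homozygous libraries.

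The genes with the profile most like that of TFE3 were sought among 11612 tested genes that averaged 5 CPM or more and had a symbol that is not a clone name. Likeness was the root mean square distance over 9 libraries of log2 CPM, each gene being centred on its wild-type mean. The closest were ACLY (distance 0.107, r = 0.991), ctsla (0.113, r = 0.986), ACSBG2 (0.115, r = 0.988), FASN (0.116, r = 0.984) and ildr1a (0.118, r = 0.992). ACLY and FASN encode enzymes of fatty acid synthesis from citrate, ACSBG2 an acyl-CoA synthetase and ctsla a zebrafish cathepsin L, a lysosomal protease. The points share 3 genotype groups, so high r is common: 974 of these genes had r above 0.9, and the gene ranked 100 lay at a distance of 0.288.

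Of these, ACLY was at 435, 435 and 408 CPM in homozygous, 175, 174 and 178 CPM in heterozygous and 139, 145 and 144 CPM in wild-type libraries. The protease gene ctsla was at 2187, 2166 and 2145 CPM in homozygous, 1139, 1152 and 1161 CPM in heterozygous and 803, 825 and 887 CPM in wild-type libraries. As for TFE3, the 3 genotypes were in the same order without overlap and the heterozygous level lay nearer to wild type. The 5 genes were picked for likeness to TFE3 over these libraries, so these features and the fold changes below follow from that choice. The log2 fold changes of the 5 genes ran from 1.31 ± 0.06 (ildr1a) to 1.58 ± 0.04 (ACLY) in homozygous and from 0.23 ± 0.05 (ACSBG2) to 0.51 ± 0.06 (FASN) in heterozygous embryos against wild type.

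**Figure D4:**
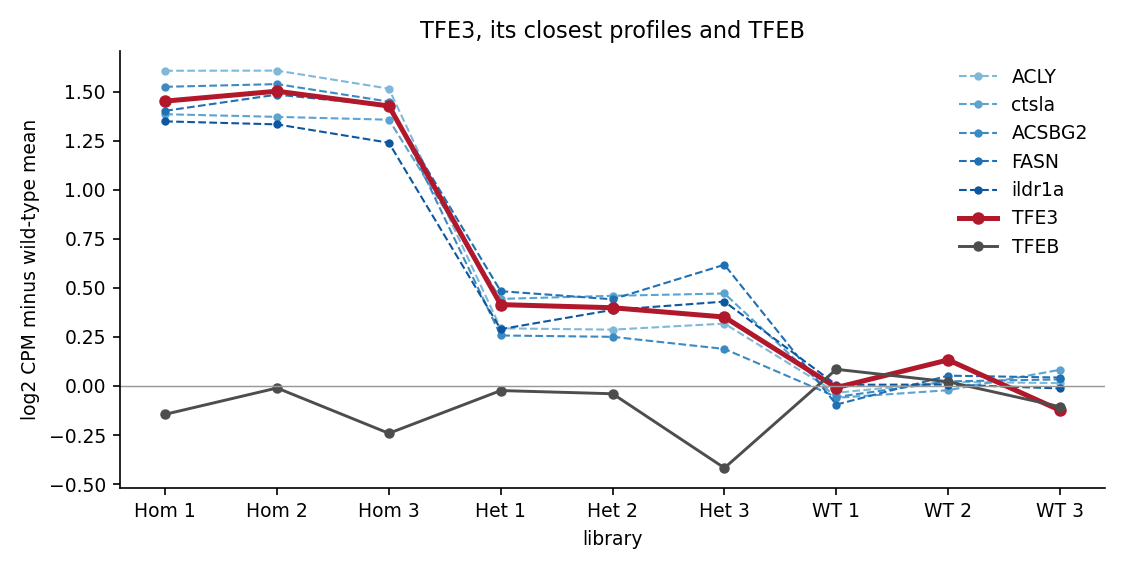
Log2 CPM minus the gene's wild-type mean in each of the 9 libraries (homozygous, heterozygous, wild-type, left to right; lines only join values of a gene, and replicates have no order) for TFE3, its 5 closest genes and TFEB. TFE3 (r of 0.984 to 0.992 with the 5 genes) was high in homozygous libraries and slightly raised in heterozygous ones, whereas TFEB was near or below its wild-type mean in the 6 mutant libraries.

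Lists of genes known, mainly from mammals, to act with or under these factors were counted in the same tests. Of 44 tested CLEAR lysosome genes, 23 were higher and 6 lower in homozygous against wild-type embryos (median log2 fold change 0.24, all genes 0.02), where 23.5% of all genes were higher and 21.1% lower. In heterozygous against wild-type embryos 9 were higher and 6 lower (median 0.03), where 15.5% of all genes were higher and 14.4% lower. In homozygous against heterozygous embryos 23 were higher and 3 lower (median 0.26), where 20.4% of all genes were higher and 19.4% lower, 39.8% together. The 6 lower in homozygous against wild-type embryos include both NPC2 rows, and the count was 3 without wild-type replicate 3.

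Single lysosome genes differed in their levels in heterozygous embryos. The peptidase gene TPP1 was at 85.2, 87.1 and 82.8 CPM in homozygous, 51.9, 53.0 and 57.8 CPM in heterozygous and 45.9, 48.5 and 49.5 CPM in wild-type libraries, and rose by 0.83 ± 0.05 in homozygous (edgeR adjusted p = 1.67e-09) and 0.18 ± 0.05 in heterozygous embryos (adjusted p = 0.0211). The saposin precursor gene PSAP rose by 0.62 ± 0.04 and 0.35 ± 0.04 (adjusted p = 2.54e-09 and 1.01e-05). The lysosome membrane gene LAMP2 rose by 0.48 ± 0.05 and 0.46 ± 0.05 (adjusted p = 7.97e-07 and 4.58e-06), and homozygous and heterozygous embryos differed by 0.01 ± 0.05 (adjusted p = 0.850). LAMP2 was thus above wild type in both mutant genotypes with no call between them, and TPP1 was called in all 3 comparisons. The call of TPP1 in heterozygous against wild-type embryos ended without heterozygous replicate 3 or wild-type replicate 1 (highest adjusted p = 0.127). Whether TFE3, TFEC or MITF act on these lysosome genes in the embryos was not tested. CTSB (ENSDARG00000055120), named after its values were seen, encodes the lysosomal protease cathepsin B and had the largest fall of the list. It was at 9.72, 10.3 and 39.0 CPM in homozygous, 251, 263 and 243 CPM in heterozygous and 463, 451 and 467 CPM in wild-type libraries, with no overlap between genotypes. It fell by 4.60 ± 0.57 in homozygous against wild-type embryos (edgeR adjusted p = 8.24e-04, and -5.53 without homozygous replicate 3) and by 3.74 ± 0.55 against heterozygous embryos (adjusted p = 0.00214). The difference of -0.87 ± 0.48 in heterozygous against wild-type embryos did not pass the test (adjusted p = 0.242), although every heterozygous library lay below every wild-type one. That SE comes from the fit of all 9 libraries, and so includes the spread of the homozygous ones.

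Of 19 tested autophagy and metabolic targets, 8 were higher and 5 lower in homozygous embryos (all genes 23.5% and 21.1%) and 3 higher and 7 lower in heterozygous embryos (all genes 15.5% and 14.4%), each against wild type. The autophagy receptor gene SQSTM1 was at 123, 130.0 and 116 CPM in homozygous, 62.7, 67.5 and 67.3 CPM in heterozygous and 32.7, 38.6 and 40.2 CPM in wild-type libraries. It rose by 1.72 ± 0.07 in homozygous embryos (edgeR adjusted p = 9.45e-12) and by 0.82 ± 0.07 in heterozygous embryos (adjusted p = 3.97e-07). WIPI1, which acts in autophagosome formation, rose by 0.71 ± 0.06 in homozygous embryos (adjusted p = 1.68e-08) and fell by 0.24 ± 0.06 in heterozygous embryos (adjusted p = 0.00389). GPNMB, a target of these factors in mammalian cells that lack folliculin, differed by -0.07 ± 0.10 in homozygous and 0.16 ± 0.10 in heterozygous embryos and did not pass the test, and PPARGC1A, the mitochondrial coactivator gene, fell by 0.43 ± 0.07 in homozygous (edgeR adjusted p = 1.50e-04) and 0.22 ± 0.07 in heterozygous embryos (adjusted p = 0.0345). The call of PPARGC1A in heterozygous embryos ended without any 1 heterozygous library or wild-type replicate 1 or 2 (highest adjusted p = 0.131). GPNMB and PPARGC1A were picked from the list for their known link to folliculin in mammals, after their values were seen.

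Among the other Rag and Ragulator genes, which form the platform for mTORC1 on the lysosome, 2 of 8 tested were higher and 3 lower in homozygous embryos, 62.5% in all against 44.5% of all genes, and 1 was higher and 3 lower in heterozygous embryos, 50% against 29.8%, each against wild type. The single higher gene of heterozygous embryos, LAMTOR4 (0.20 ± 0.07), kept its call only without homozygous replicate 3 among the 9 leave-outs. The 2 of homozygous embryos became 1 when homozygous replicate 1 or 3, or replicate 2 or 3 of wild type, was left out. This count in homozygous embryos also changed without the low-count filter and when only the 2 genotypes compared were fitted. The gene rragcb, the second zebrafish RagC copy, was at 7.73, 7.65 and 9.16 CPM in homozygous, 8.68, 9.29 and 9.25 CPM in heterozygous and 15.8, 13.5 and 13.6 CPM in wild-type libraries. It fell by 0.81 ± 0.09 in homozygous embryos (edgeR adjusted p = 2.18e-06) and by 0.66 ± 0.09 in heterozygous embryos (adjusted p = 5.68e-05), whereas rragca passed no test. SLC38A9, the lysosomal arginine sensor gene, fell by 0.26 ± 0.09 in homozygous embryos (adjusted p = 0.0226) and by 0.53 ± 0.09 in heterozygous embryos (adjusted p = 1.91e-04). The call in homozygous embryos ended when replicate 1 or 2 of homozygous or of wild-type embryos was left out (highest adjusted p = 0.0966). LAMTOR1, the Ragulator subunit that anchors the complex in the membrane, rose by 0.43 ± 0.08 in homozygous embryos (adjusted p = 4.24e-04).

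Of 17 tested GATOR and amino acid sensor genes, 2 were higher and 5 lower in homozygous embryos, 41.2% in all against 44.5% of all genes, and 3 higher and 5 lower in heterozygous embryos, 47.1% against 29.8%, each against wild type; the 2 higher became 1 when homozygous replicate 1 or 3, or replicate 1 or 2 of wild type, was left out. Among the sestrin genes named here, sesn2 rose in homozygous embryos, and sesn3 and SESN1 fell in both mutant genotypes. The stress-induced sestrin gene sesn2 was at 29.2, 30.1 and 25.2 CPM in homozygous, 8.16, 8.43 and 8.29 CPM in heterozygous and 8.03, 8.93 and 11.8 CPM in wild-type libraries, and rose by 1.55 ± 0.12 in homozygous embryos (edgeR adjusted p = 6.13e-08). Its relative sesn3 fell by 0.60 ± 0.07 in homozygous and 0.56 ± 0.07 in heterozygous embryos (adjusted p = 2.28e-06 and 1.53e-05). SESN1 fell by 0.24 ± 0.05 in homozygous and 0.49 ± 0.05 in heterozygous embryos (edgeR adjusted p = 0.00141 and 3.94e-06).

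Among 15 tested mTORC1, TSC and Rheb genes, 3 were higher and 2 lower in homozygous embryos (1 higher without any 1 of the homozygous libraries), 33.3% in all against 44.5% of all genes. Heterozygous embryos had 1 higher and 3 lower against wild type, 26.7% against 29.8%. The mTORC1 inhibitor gene akt1s1 (PRAS40) fell by 0.67 ± 0.06 in homozygous and 0.89 ± 0.06 in heterozygous embryos (edgeR adjusted p = 4.01e-08 and 7.99e-09). EIF4EBP3 (ENSDARG00000041607), a translation repressor gene that TFE3 induces in mammalian cells, fell by 0.21 ± 0.05 and 0.91 ± 0.05 (adjusted p = 0.00330 and 2.64e-09), and was higher by 0.71 ± 0.05 in homozygous than in heterozygous embryos. In akt1s1 and this EIF4EBP3 row the larger fall was in heterozygous embryos. Another row of that symbol, eif4ebp3 ENSDARG00000054916, was not among the rows called lower against wild type. The related gene eif4ebp1 rose by 0.23 ± 0.07 in homozygous and 0.31 ± 0.07 in heterozygous embryos (edgeR adjusted p = 0.0106 and 0.00216). Its call in homozygous embryos ended without homozygous replicate 1 (adjusted p = 0.0695).

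Of 28 tested genes that act on the location of MiT/TFE proteins (calcineurin, calcium channel, kinase, export and 14-3-3 genes), 11 were higher and 5 lower in homozygous embryos, 57.1% in all against 44.5% of all genes, and 6 higher and 8 lower in heterozygous embryos, 50% against 29.8%, each against wild type. The 5 lower became 3 without homozygous replicate 1 or wild-type replicate 1. The 14-3-3 gene ywhaqa rose by 0.73 ± 0.05 in homozygous embryos (edgeR adjusted p = 7.78e-10), and the calcineurin gene ppp3cb by 0.66 ± 0.08 (adjusted p = 4.03e-06). The kinase gene akt1 fell by 1.24 ± 0.12 (adjusted p = 3.97e-07), and MAP4K3, which acts on mammalian TFEB, by 0.69 ± 0.09 (adjusted p = 7.25e-06). Of the 3 tested relatives of folliculin and its partners, only SMCR8 was called against wild type, higher in homozygous embryos (0.34 ± 0.10, adjusted p = 0.00944). That is 33.3% against 44.5% of all genes, and 0% against 29.8% in heterozygous embryos. SMCR8 (0.28 ± 0.10, edgeR adjusted p = 0.0320) and WDR41 (0.29 ± 0.07, adjusted p = 0.00292) were higher in homozygous than in heterozygous embryos, 66.7% against 39.8%. This call of SMCR8 ended without homozygous replicate 2 or 3 or heterozygous replicate 1 or 2.

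Other basic helix-loop-helix leucine zipper genes were counted for comparison with the family. Of 13 tested, 4 were higher and 5 lower in homozygous embryos, 69.2% in all against 44.5% of all genes, and 1 higher and 3 lower in heterozygous embryos, 30.8% against 29.8%, each against wild type. The 5 became 2 without homozygous replicate 2 and 3 without wild-type replicate 1 or 2, and the single higher gene of heterozygous embryos, MYC ENSDARG00000007241 (0.15 ± 0.05), kept its call only without wild-type replicate 3 among the 9 leave-outs and lost it under RLE and upper-quartile scaling. The sterol regulator gene srebf2 was at 563, 576 and 531 CPM in homozygous, 111, 119 and 114 CPM in heterozygous and 120.3, 124 and 103 CPM in wild-type libraries. It rose by 2.26 ± 0.06 in homozygous embryos (edgeR adjusted p = 3.80e-14), against 1.46 ± 0.08 for TFE3, and differed by -0.02 ± 0.06 in heterozygous embryos (adjusted p = 0.874), where TFE3 rose. USF1, whose protein binds the same E-box core, fell by 0.31 ± 0.06 and 0.40 ± 0.06 (adjusted p = 9.26e-04 and 1.95e-04).

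**Figure D5:**
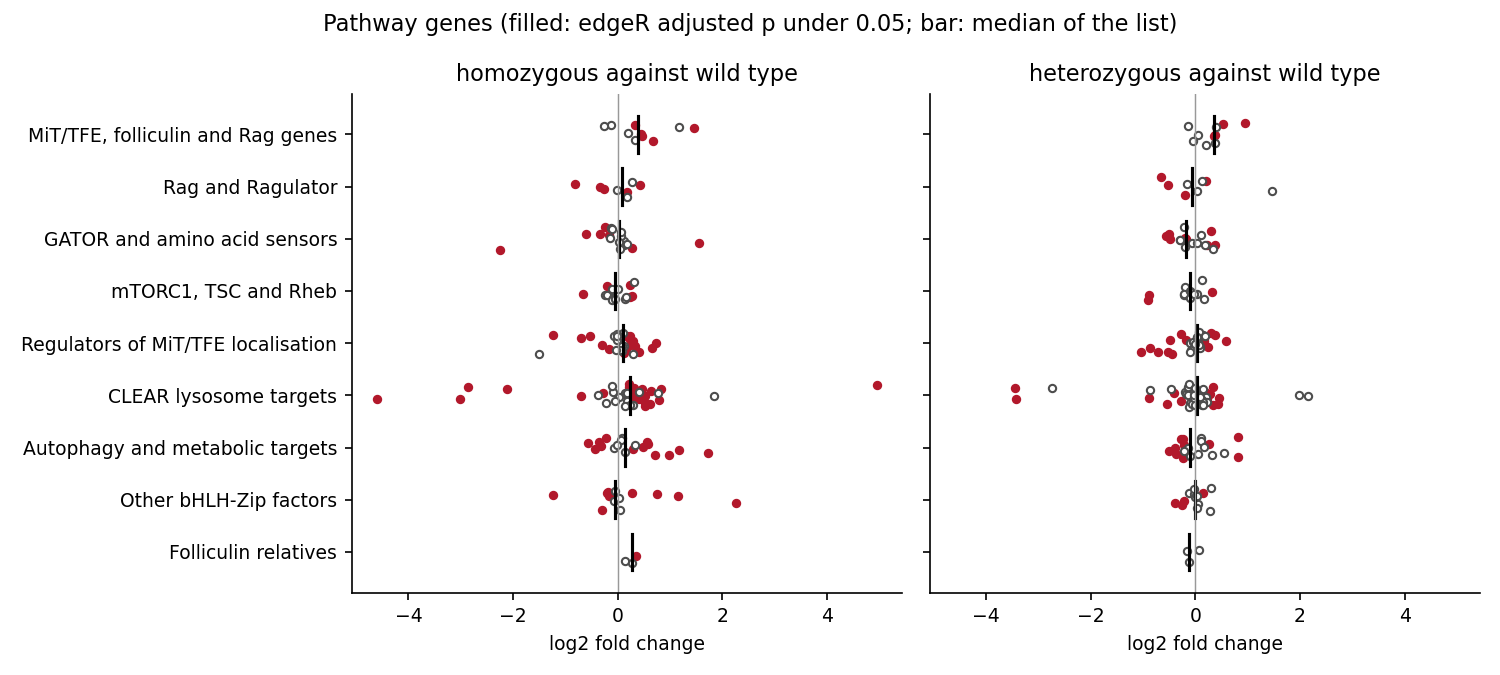
Log2 fold changes of every tested gene (points, filled where the edgeR adjusted p was under 0.05) in homozygous against wild-type embryos on the left and heterozygous against wild-type embryos on the right, by list, with the list's median as a bar. The MiT/TFE, folliculin and Rag genes had medians of 0.39 and 0.36, and the CLEAR lysosome list 0.24 and 0.03.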

How the data were processed

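The authors deposited raw counts, 1 whole number per gene and library. Per the submitters' processing notes, cutadapt 1.18, HISAT2 2.1.0 and featureCounts 1.6.3 were used with GRCz11 (danRer11); the annotation, strand and counting settings used were not given in the sources used here. Between 96.3% and 97.5% of counts from 1 to 19 were even, so most fragments may hold 2 counts. That would make limits and intervals from single counts too narrow.

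Groups and replicate numbers came from sample titles. Of 32520 IDs, 29201 had a symbol. edgeR 4.0.16 (R 4.3.3) fitted all 9 libraries together without a block (filter by expression, TMM factors 0.981 to 1.02, robust quasi-likelihood F test, Benjamini-Hochberg adjustment over 20375 genes per comparison; 12145 IDs were not tested). Calls were made where the adjusted p was below 0.05. SE was taken as |log2 fold change| over the root of F. The procedure was also run on simulated counts. Far fewer genes were changed there than were called here, so that run does not measure the error rate in these data. No library was a duplicate of another (chi-square over degrees of freedom from 2.65 to 7.40 within genotypes). Alternatives were DESeq2 1.42.0, limma-voom (limma 3.58.1), other scalings and filters, fits of 2 genotypes, a replicate block, halved counts and leaving out each library.

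All matched rows are described. From each list, up to 4 genes with the lowest adjusted p per comparison, and defining markers, could be named, and part of them are. GPNMB, PPARGC1A, CTSB, TFAP2E, TFAP2A, aox5 in heterozygous embryos and pnp4a in homozygous against heterozygous embryos were named outside this rule. The 13 lists held 239 entries, of which 13 had no match. Members and lists were chosen with earlier results of these data known. RefSeq overlaps come from another build, GRCz12tu, and are used for names only.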

Additional observations from a re-analysis of the deposited data

How the results depend on the processing

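The numbers of members and of genes called in the comparisons of 2 genotypes stayed within 1.5 times under every alternative run. Against the midpoint, the number of members above it was 1 to 3 when 1 library was left out and 3 under the other alternatives with a value, and the number below it was 2 throughout. Of 702 alternative values for the members' fold changes, 673 kept direction and call, 12 lost the call, 5 gained one and 12 changed sign. Every change of sign was in a difference that did not pass the test and arose when 1 library was left out. There the values ran from -0.0573 to 0.39 for MITF ENSDARG00000037833 and homozygous against wild type, from -0.22 to 0.67 for FNIP2 and from -0.0899 to 0.24 for rragca and heterozygous against wild type, from -0.0913 to 0.0883 for TFEB and from -0.048 to 0.00999 for MITF ENSDARG00000003732 and homozygous against heterozygous, and from -0.15 to 0.0248 for TFEB and from -0.0308 to 0.15 for tfe3b and heterozygous against the midpoint. The cause was not tested. The numbers called higher among members were 4 to 6 (homozygous against wild type), 4 (heterozygous against wild type) and 2 to 3 (homozygous against heterozygous).

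Deviations of same-numbered libraries had correlations of 0.0565 to 0.0848 between heterozygous and homozygous embryos, and of -0.0242 to 0.0208 in pairs with wild type. Pairs of unlike number were not computed for comparison, so these values cannot decide whether replicate numbers pair the pools. The labels do not say that they do. With a replicate block, 6 members were higher in homozygous against wild-type embryos, because rragca was called (0.35, adjusted p = 0.0471); the block changed no other member's call. Of 3059 alternative values for the other genes checked, 2949 kept their call, 110 lost it and 0 changed sign. Of 1404 counts by list, 89 moved by over 1.5 times. With a filter of 1 CPM in 3 libraries, FNIP2 and MITF ENSDARG00000037833 had no value, and fits of 2 genotypes gave no midpoint. Scaling moved the median of all genes by at most 0.0148 on the log2 scale. Depth limits tfe3b, FNIP2, rragd and MITF ENSDARG00000037833 most.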
